A study of Homo sapiens with 6 samples.

Results

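The TCF/LEF family of transcription factors was examined in RPMI-8402, a cell line from a human T-cell acute lymphoblastic leukaemia, after knockdown of a member. The family has 4 genes, TCF7 (coding for TCF1), LEF1, TCF7L1 and TCF7L2, of the 19699 genes that the array names by a RefSeq accession, and its probes were chosen as the non-control probes whose accession maps to these symbols, 7 of 57176. Lentiviral vectors carried either a control, a short hairpin RNA (shRNA) labelled shGATA3 or a hairpin labelled shTCF1, the last directed at TCF7. EGFP+ cells were sorted 48 h later in all 3 groups, and 100 ng of RNA from each of the 6 samples was labelled and read on 1 array, with 2 arrays per group. Control cells received a control shRNA vector per the study's methods, which name 1 hairpin against GATA3, while the vector of the TCF7 hairpin is not given in the sources used here. All samples come from 1 leukaemic line and not from primary thymocytes. The study describes the values of this line as averages of 2 independent experiments. The design asks how far TCF7 falls under its own hairpin and under the GATA3 hairpin, and where its relatives stand in the same cells.

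TCF/LEF proteins bind DNA through a high mobility group box and have little activity of their own. They recruit Groucho/TLE co-repressors to their sites in the absence of a Wnt signal, and they recruit β-catenin and its co-activators when β-catenin accumulates and enters the nucleus. TCF1 and LEF1 are the main members in the T lineage, where TCF1 is induced early by Notch and both act in thymocyte development, whereas TCF7L1 and TCF7L2 are best known from stem cells, the gut epithelium and other tissues.

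Family members are known to occupy regulatory DNA of their own genes, and the windows of 250 bases upstream of the annotated starts are shown for TCF7, whose signal fell, for LEF1, whose signal was not called, and for the TCF7L2 start that holds a family motif. The sequences are RefSeq's on the build GRCh38.p14, given 5′ to 3′ on the strand of the gene, with matches to the TCF/LEF letters CTTTG followed by AA, AT, TA or TT, on either strand, in capitals.
TCF7 start 1, chr5:134115363-134115612, plus strand: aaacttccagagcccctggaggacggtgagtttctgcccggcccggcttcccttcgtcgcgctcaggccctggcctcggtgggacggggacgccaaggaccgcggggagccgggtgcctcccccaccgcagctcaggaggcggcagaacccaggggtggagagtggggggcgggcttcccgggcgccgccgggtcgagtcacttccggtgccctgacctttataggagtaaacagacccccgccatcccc
TCF7 start 2, chr5:134123368-134123617, plus strand: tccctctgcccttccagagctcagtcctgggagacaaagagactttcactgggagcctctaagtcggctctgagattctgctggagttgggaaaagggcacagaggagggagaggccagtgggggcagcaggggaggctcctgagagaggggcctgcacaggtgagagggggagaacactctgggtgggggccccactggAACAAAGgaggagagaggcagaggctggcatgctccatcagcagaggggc
LEF1 start 1, chr4:108166302-108166551, minus strand: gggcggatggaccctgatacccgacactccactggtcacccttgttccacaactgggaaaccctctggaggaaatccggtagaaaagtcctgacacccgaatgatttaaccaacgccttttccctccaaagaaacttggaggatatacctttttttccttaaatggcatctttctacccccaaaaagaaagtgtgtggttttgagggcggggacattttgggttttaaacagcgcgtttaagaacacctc
TCF7L2 start 2, chr10:113126383-113126632, plus strand: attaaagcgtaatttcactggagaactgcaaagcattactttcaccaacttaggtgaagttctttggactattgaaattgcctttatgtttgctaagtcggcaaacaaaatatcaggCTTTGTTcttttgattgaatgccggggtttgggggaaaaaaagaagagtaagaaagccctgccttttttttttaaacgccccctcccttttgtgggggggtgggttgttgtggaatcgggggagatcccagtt
The table lists 7 starts for the family, 2 for TCF7, 1 for LEF1, 1 for TCF7L1 and 3 for TCF7L2. A TCF/LEF match stood in 2 of these 7 windows. One began 50 bases before the second TCF7 start, on the strand opposite to the gene, and the other 133 bases before the second TCF7L2 start. Of all 35116 windows of this length in the table, 12.0% held such a match. GATA motifs (AGATA or TGATA followed by A or G, on either strand) were found in 0 of the 7 family windows and in 22.3% of all windows. These matches describe letters only, and they were not compared with binding data.

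Intensities are given as the scanner software reported them, after its background subtraction, and normalized values are log2 intensities after variance stabilizing normalization (VSN), which shifts and scales every array separately. On each array 51.0% to 56.2% of probes exceeded background clearly, and 0 probes were saturated. The upper quartile of intensity was 269.6 and 287.4 on the control arrays and between 165.3 and 178.8 on the other 4, so raw intensities are not comparable between groups before normalization. All 6 arrays lay on 1 slide and were read in 1 scan, with both control arrays in row 2 of the slide and the 4 hairpin arrays in row 1, so that row and any difference from control cannot be told apart, whereas the comparison of shTCF1 with shGATA3 lies within row 1. Of 10 markers of T-lineage blasts, 9 were well above background on all 6 arrays and RAG1 on 2. Some markers of other lineages also exceeded background on all 6, namely 2 of 4 for B cells, 3 of the 4 with a probe for myeloid cells, 1 of 3 for NK cells and 2 of 3 for erythroid cells, while CD22, CSF1R, KLRD1, KLRF1 and HBB did so on none. GATA3 was not lower on the arrays labelled shGATA3, where its normalized values were 9.46 and 9.55, against 9.54 and 9.56 in control and 9.76 and 9.90 under shTCF1 (shGATA3 vs control log2 change -0.05, SE 0.10, limma adjusted p = 0.795). The 2 hairpin groups are therefore named by their labels throughout.

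TCF7 fell on the arrays labelled shTCF1 to 40.5% of its control level by one probe and to 35.8% by the other. Probe A_23_P7582 had intensities of 20407 and 21592 in control, 16860 and 17563 under shGATA3 and 5462 and 5376 under shTCF1. In normalized values these became 13.96 and 13.91 in control, 14.26 and 14.27 under shGATA3 and 12.58 and 12.68 under shTCF1. Both shTCF1 arrays lay below all other arrays, and both shGATA3 arrays lay above both control arrays. The second TCF7 probe, A_33_P3250671, had normalized values of 11.14 and 11.04 in control, 11.48 and 11.76 under shGATA3 and 9.62 and 9.60 under shTCF1, with the groups in the same order and again without overlap.

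**Figure D1:**
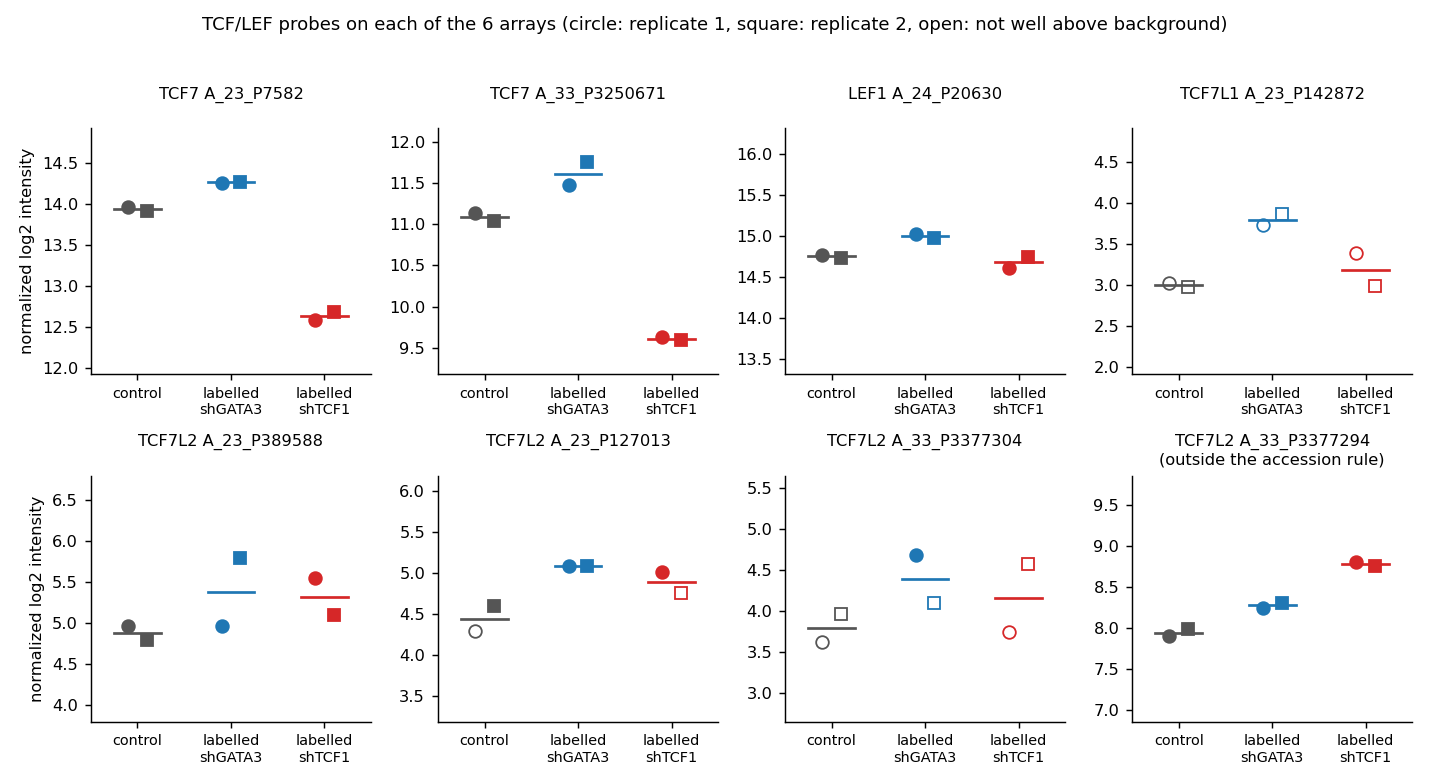
Normalized log2 intensity of each TCF/LEF probe on the 6 arrays, by group. Each panel spans 3 log2 units around its own probe, bars are group means of 2 arrays, and open symbols mark arrays on which the probe was not well above background. Both TCF7 probes sit lowest under shTCF1, LEF1 stays within 0.42 log2 units over all arrays, and TCF7L1 is open on all 6.

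Relative to control, the signal of A_23_P7582 under shTCF1 was 40.5% (95% interval 34.2% to 47.8%), a log2 change of -1.31 (SE 0.10, limma adjusted p = 0.00393). For A_33_P3250671 it was 35.8% (28.9% to 44.4%), a log2 change of -1.48 (SE 0.13, limma adjusted p = 0.00462). Among the 31131 tested probes these 2 ranked 91 and 162 by p, and 16.9% of all tested probes were called in this comparison, against 2 of the 5 tested family probes. The 5274 probes behind this share became 1392 and 2300 when control replicate 1 or 2 was omitted, and 1833 and 2072 when shTCF1 replicate 1 or 2 was. In bulk samples, fewer cells with TCF7 mRNA and less TCF7 mRNA per cell cannot be told apart. Within slide row 1, the loss against shGATA3 was deeper, to 32.2% (27.3% to 38.1%) for A_23_P7582 and to 24.8% (20.0% to 30.7%) for A_33_P3250671, with limma adjusted p of 0.00124 and 0.00134. In that comparison 6.18% of all tested probes were called. Both losses against control kept their call whichever single array was omitted, with log2 changes from -1.36 to -1.26 and from -1.53 to -1.43.

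A_23_P7582 was printed 15 times on each array, which gives the error of the measurement within an array. One spot was marked as an outlier on all 6 arrays and was left out, and its intensity, from 6062 to 26791, was above all other spots of the probe on each array. The other 14 spots varied with a coefficient of variation of 2.60% to 4.42%. Their normalized values spanned 13.85 to 14.06 on control replicate 1 and went down to 13.78 on control replicate 2, against 12.48 to 12.64 and 12.62 to 12.75 on the 2 shTCF1 arrays, so that no spot of a shTCF1 array reached any spot of another group. Computed spot by spot, the difference of shTCF1 from control ranged from -1.39 to -1.22 over the 14 spots, with a median of -1.30. The difference of shGATA3 from control ranged from 0.28 to 0.40, with a median of 0.33, so all 14 spots were higher. These spots share 1 RNA sample per array and are repeats of the measurement, not of the transduction.

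**Figure D2:**
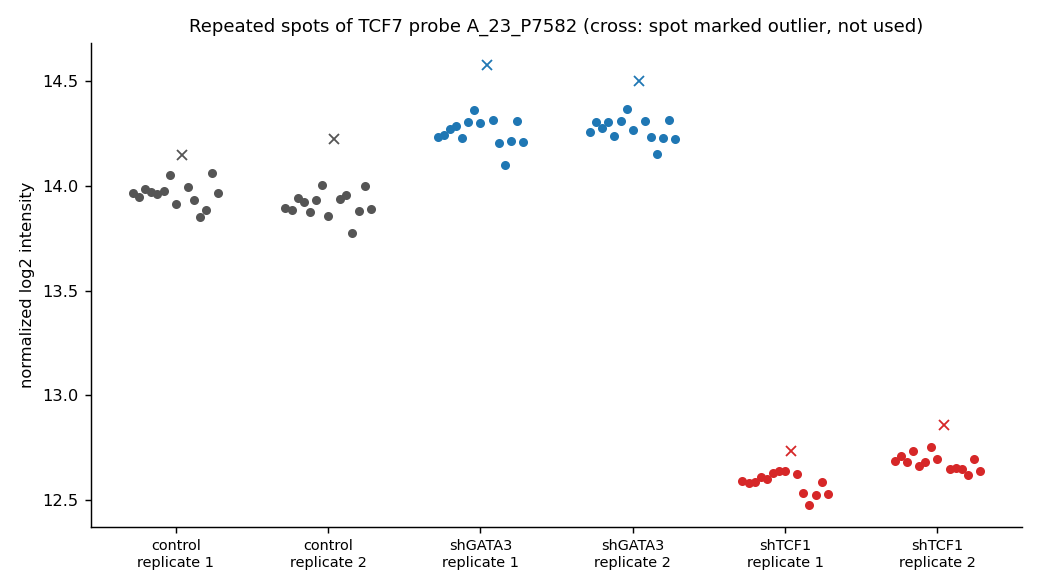
Normalized log2 intensity of every spot of TCF7 probe A_23_P7582 on each array, with the array's group and replicate on the x axis. The spots of an array lie close together, the excluded spot (cross) lies above them on each array, and the shTCF1 arrays stand apart at 12.48 to 12.75.

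Under shGATA3, TCF7 was not called different from control, although its values lay higher with both probes. A_23_P7582 was at 126% of control (106% to 148%), a log2 change of 0.33 (SE 0.10), and A_33_P3250671 at 144% (117% to 179%), a log2 change of 0.53 (SE 0.13). Limma's adjusted p was 0.105 and 0.0634. Over the alternatives tried, the adjusted p ranged from 0.0405 to 0.568 for the first probe, which was called with an intensity trend, and from 0.0128 to 0.568 for the second, which passed with the same trend, with normexp correction and in the set of probes detected on every array. In this comparison 6.84% of all tested probes were called, against 0 of the 5 tested family probes. Both TCF7 probes and 1 TCF7L2 probe under the rule, A_23_P127013, had an unadjusted limma p below 0.05. That cut is loose here, as LEF1 with a limma p of 0.0511 ranked 8335 of the 31131 tested probes. A_23_P127013 was tested only through the shGATA3 group, where its mean was highest.

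LEF1, the other member with a known role in thymocytes, was not called in any of the 3 comparisons. Its probe A_24_P20630 had intensities of 35707 and 38191 in control, 28688 and 28658 under shGATA3 and 22248 and 22545 under shTCF1. The normalized values were 14.77 and 14.73 in control, 15.02 and 14.98 under shGATA3 and 14.61 and 14.75 under shTCF1. The shTCF1 arrays overlapped the control arrays, and the shGATA3 arrays lay above both of the other groups. Under shTCF1 the log2 change of LEF1 from control was -0.07 (SE 0.10, limma adjusted p = 0.640), and its 95% interval ran from 79.8% to 113% of control, so a rise of LEF1 beyond 113% lies outside this interval. Under shGATA3 it stood at 119% of control (99.9% to 142%, limma adjusted p = 0.191), and shTCF1 stood at 79.9% of shGATA3 (67.1% to 95.1%, limma adjusted p = 0.132). The last difference was called only with normexp correction (log2 change -0.35, adjusted p = 0.0330, against 0.0330 to 1 over all alternatives). Set against TCF7 on the same arrays, the log2 change of LEF1 under shTCF1 was 1.23 higher than that of A_23_P7582.

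**Figure D3:**
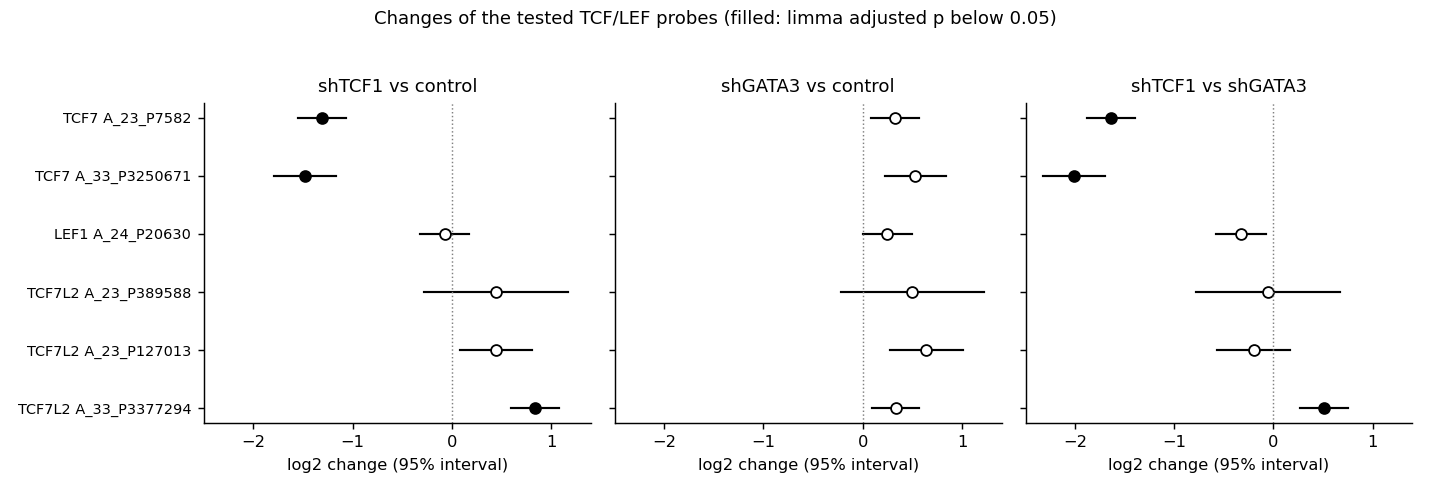
Log2 change with its 95% interval for each tested TCF/LEF probe in the 3 comparisons, with filled points for a limma adjusted p below 0.05. The 2 TCF7 probes are filled and negative in both comparisons with shTCF1, LEF1 is open in all 3, and the TCF7L2 probe outside the accession rule (A_33_P3377294) is filled and positive at 0.84 and 0.51.

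TCF7L1 was not measurable in these cells. Its single probe, A_23_P142872, was not well above background on any of the 6 arrays, with intensities from 3.40 to 9.19, and was not tested. For this member no change is given.

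TCF7L2 had 3 probes under the rule, all dim. A_23_P389588 exceeded background clearly on each of the 6 arrays, with normalized values of 4.97 and 4.80 in control, 4.97 and 5.80 under shGATA3 and 5.56 and 5.10 under shTCF1. Both shTCF1 arrays lay above both control arrays, while shGATA3 replicate 1 was level with the higher control array and replicate 2 was the highest of all. Its log2 change was 0.44 (SE 0.29) under shTCF1 and 0.50 (SE 0.29) under shGATA3, with limma adjusted p of 0.328 and 0.331. With 1 array left out these values ran from 0.21 to 0.67 and from 0.08 to 0.93. A_23_P127013 was well above background on 4 of the 6 arrays, 1 of 2 in control, both under shGATA3 and 1 of 2 under shTCF1. It was tested only through the shGATA3 group, where its mean was highest, so its tests give no support for a rise there. Its log2 changes of 0.44 (SE 0.15) under shTCF1 and 0.64 (SE 0.15) under shGATA3 were not called either (limma adjusted p of 0.0930 and 0.0599). The second was called with quantile normalization alone (0.82, limma adjusted p = 0.0444, against 0.0444 to 0.705 over all alternatives) and was 0.15 with normexp correction. A_33_P3377304 was well above background on 1 array, shGATA3 replicate 1, and was not tested. Of the 2 tested TCF7L2 probes under the rule, 0 were called in each of the 3 comparisons. An unadjusted limma p below 0.05 was reached by 1 probe under shTCF1, by 1 under shGATA3 and by 0 between them. Both times it was A_23_P127013, which ranked 8349 and 2619 of the 31131 tested probes by p.

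A further probe, A_33_P3377294, carries an Ensembl transcript accession that the RefSeq table does not hold, so it lies outside the rule, and the study's gene tables name it TCF7L2. It stood clearly above background on all 6 arrays, with intensities of 301.7 and 348.4 in control, 257.8 and 278.4 under shGATA3 and 396.6 and 352.7 under shTCF1. The normalized values were 7.91 and 7.99 in control, 8.25 and 8.31 under shGATA3 and 8.81 and 8.76 under shTCF1, and the 3 groups did not overlap. It rose under shTCF1 to 179% of control (151% to 211%), a log2 change of 0.84 (SE 0.10, limma adjusted p = 0.00822). It was also higher than under shGATA3, by 0.51 (SE 0.10, limma adjusted p = 0.0411), and its value of 0.33 under shGATA3 against control was not called (limma adjusted p = 0.102). The rise against control was not called without control replicate 1 (log2 change 0.80, limma adjusted p = 0.0525), and the difference from shGATA3 stayed between 0.48 and 0.54 but lost its call whichever single array was omitted (limma adjusted p 0.0984 to 0.129). The 2 tested TCF7L2 probes under the rule did not follow the difference between the hairpin groups, with log2 changes of -0.06 and -0.20 for shTCF1 against shGATA3. The position of each probe within the gene is not in the files.

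**Figure D4:**
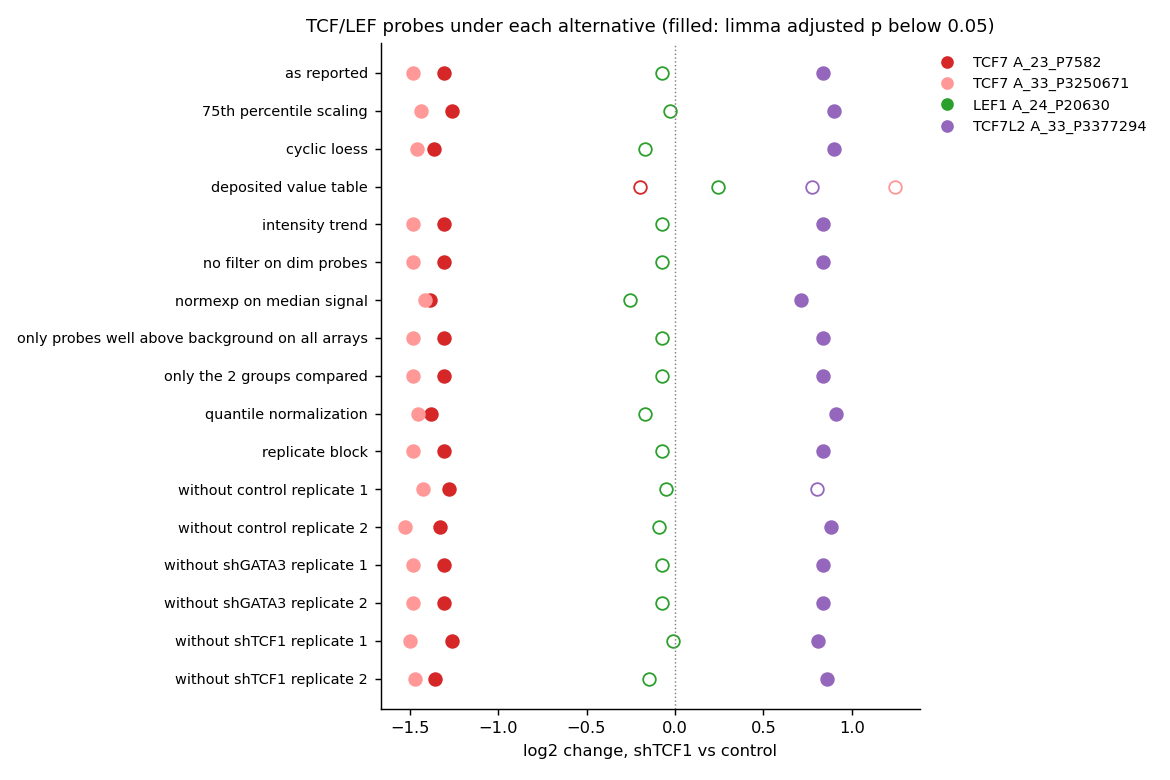
Log2 change of the brighter TCF/LEF probes for shTCF1 against control, as reported and under each alternative, with filled points for a limma adjusted p below 0.05. Both TCF7 probes stay between -1.53 and -1.26 except with the deposited value table, LEF1 has open points throughout, and A_33_P3377294 stays between 0.71 and 0.91.

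The genes around the family were taken from 5 lists, and each gene is represented by its brightest tested probe in each fit. Of 65 genes 52 were tested, and 4 were higher and 7 lower under shTCF1 than in control, with a median log2 change of -0.11. Over all 14488 genes tested the median was -0.05, and 6.26% were called higher and 9.99% lower. The 7 lower genes include RAG1, which was tested only through the control group, where its mean was highest. Under shGATA3, against the same control arrays, 3 of the 52 were higher and 2 lower, against 2.79% and 4.14% of all genes, and between shTCF1 and shGATA3 2 were higher and 6 lower, against 2.83% and 3.75%. Of the 11 genes called under shTCF1 against control, 4 (AXIN2, JUP, CD44 and ID3) were also called between shTCF1 and shGATA3, the comparison within slide row 1. Of these 4, only CD44 kept that call whichever single array was omitted. Its difference of 3.66 between the hairpin groups includes its change of -3.05 under shGATA3 against control. Against control, only CD4 of the 11 kept its call under shTCF1 whichever single array was omitted. Omitting control replicate 1 or control replicate 2 left 1 of the 11 called, omitting shTCF1 replicate 1 left 3, and omitting shTCF1 replicate 2 left 2.

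Among the destruction complex, which marks β-catenin for degradation, 3 of 9 tested genes were lower under shTCF1 and 0 higher, against 9.99% and 6.26% of all genes tested. The 3 were AXIN2 (log2 change -0.92, SE 0.23), a scaffold and itself a feedback target of TCF/LEF, the scaffold APC (-0.69, SE 0.15) and AXIN1 (-0.66, SE 0.14), with limma adjusted p of 0.0451, 0.0328 and 0.0328. Under shGATA3 APC was at -0.46 and AXIN1 at -0.39, neither called, and neither was called between the hairpin groups. AXIN2 had normalized values of 7.11 and 7.18 in control, 7.55 and 7.48 under shGATA3 and 6.58 and 5.86 under shTCF1, so that the shTCF1 arrays lay lowest and well apart from each other. Without shTCF1 replicate 2 its change was -0.57 and not called, and the call was also lost without either control array or either shGATA3 array. Leaving no replicate out, its limma adjusted p on the scanner values ran from 0.0121 to 0.125. The call was then lost with 75th percentile scaling, cyclic loess, quantile normalization, no filter on dim probes, the replicate block and the 2 groups alone. APC and AXIN1 were each called under 8 of 16 alternatives. Its second probe, A_24_P298027, fell by 1.53 on the log2 scale (SE 0.19, limma adjusted p = 0.00955). APC2 had the second largest value of the list (-0.74, SE 0.52), which was not called, with control replicate 1 at 6.30 and the other 5 arrays between 4.54 and 4.77. GSK3B, a kinase of the complex, was at -0.02.

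Of 14 Wnt feedback targets only 7 were tested, and the stem-cell targets LGR5, SP5 and NOTUM were among those not well above background on any array. Of the 7 tested, 3 were called lower and 1 higher under shTCF1, against 9.99% and 6.26% of all genes tested. Under shTCF1, AXIN2, RNF43 (-0.54, SE 0.10), a ubiquitin ligase that removes Wnt receptors, and the growth regulator MYC (-0.59, SE 0.10) were lower, with limma adjusted p of 0.0451, 0.0209 and 0.0200. MYC was also lower under shGATA3 (-0.73, SE 0.10, limma adjusted p = 0.0188), and its difference between the hairpin groups was 0.14 (limma adjusted p = 0.459). CD44, an adhesion receptor, was higher (0.61, SE 0.12, limma adjusted p = 0.0231). CD44 had normalized values of 11.09 and 10.87 in control, 7.97 and 7.88 under shGATA3 and 11.62 and 11.57 under shTCF1, and it was lower under shGATA3 than in control (-3.05, SE 0.12, limma adjusted p = 0.000995). NKD2, an inhibitor of the pathway, was 1.93 higher under shGATA3 (SE 0.14, limma adjusted p = 0.00347), with a value of -0.53 under shTCF1 (limma adjusted p = 0.0537).

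The partners through which the family acts were mostly not called under shTCF1 against control, as were most of all genes tested (6.26% called higher and 9.99% lower). Of 9 tested genes for β-catenin and its co-activators, JUP (plakoglobin, a close relative of β-catenin) was higher under shTCF1, with 8.25 and 8.28 against 7.59 and 7.60 in control (log2 change 0.67, SE 0.10, limma adjusted p = 0.0125). CTNNB1, which codes for β-catenin, was at -0.22 (SE 0.10, limma adjusted p = 0.170), and the second largest value of the list was that of the co-activator BCL9 (-0.39, SE 0.23). Of 12 tested Groucho and other co-repressor genes 0 were called under shTCF1 by limma, against 6.26% higher and 9.99% lower of all genes tested. An unadjusted limma p below 0.05 was reached by 4 of them, and by at least 8349 of all 31131 tested probes. The largest values were those of TLE4 (0.44, SE 0.15) and HDAC2 (-0.35, SE 0.12). For TLE1 the probes disagreed in sign, with -0.31 for A_23_P135239, which was not called, and 0.47 for the dimmer A_33_P3217719 (limma adjusted p = 0.0498). A_23_P135239 was called under shGATA3 (0.49, limma adjusted p = 0.0470) and for shTCF1 against shGATA3 (-0.79, limma adjusted p = 0.0116). The co-activator gene BCL9L was also called in the latter comparison (-0.88, limma adjusted p = 0.0245). Each of these further calls was lost when some single array was omitted. The dimmer TLE4 probe A_23_P94494 was also called (0.68, limma adjusted p = 0.0214), as was a dimmer probe of TBL1X, part of a co-repressor complex, A_33_P3347161 (-0.73, SE 0.10, limma adjusted p = 0.0110), against -0.09 for its brightest probe.

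Of 16 tested T-lineage genes, chosen for their links to TCF1 in mouse thymocytes, 2 were higher and 2 lower under shTCF1. Over all genes tested, 6.26% were called higher and 9.99% lower. ID3, an inhibitor of E proteins, was lower (-0.79, SE 0.11, limma adjusted p = 0.0117). The recombinase gene RAG1, the other of the 2, was tested only because it was well above background on both control arrays. It was so on no hairpin array, so the size of its change is not given. Its limma adjusted p of 0.0320 rests on values not above background and gives no support for a fall. For CD8B, a co-receptor chain, the brightest probe was not called (-0.83, SE 0.39). The CD8B probe A_23_P159335 was called lower (limma adjusted p = 0.0123), but it was tested only through the control group, where its mean was highest. It was not well above background on either shTCF1 array, so the size of its change is not given and its test gives no support for a fall. CD4, which codes for a co-receptor, had normalized values of 11.65 and 11.64 in control, 12.01 and 12.15 under shGATA3 and 12.55 and 12.53 under shTCF1, so that the shTCF1 arrays lay highest. Both CD4 (log2 change 0.89, SE 0.10, limma adjusted p = 0.00774) and the T-cell receptor subunit CD3G (0.63, SE 0.15, limma adjusted p = 0.0370) were higher. Under shGATA3 CD4 stood at 0.43 (limma adjusted p = 0.0606), and it was not called between the hairpin groups (0.46, limma adjusted p = 0.0588). CD3G stood at 0.62 under shGATA3 (limma adjusted p = 0.0620), and its difference between the hairpin groups was 0.02.

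**Figure D5:**
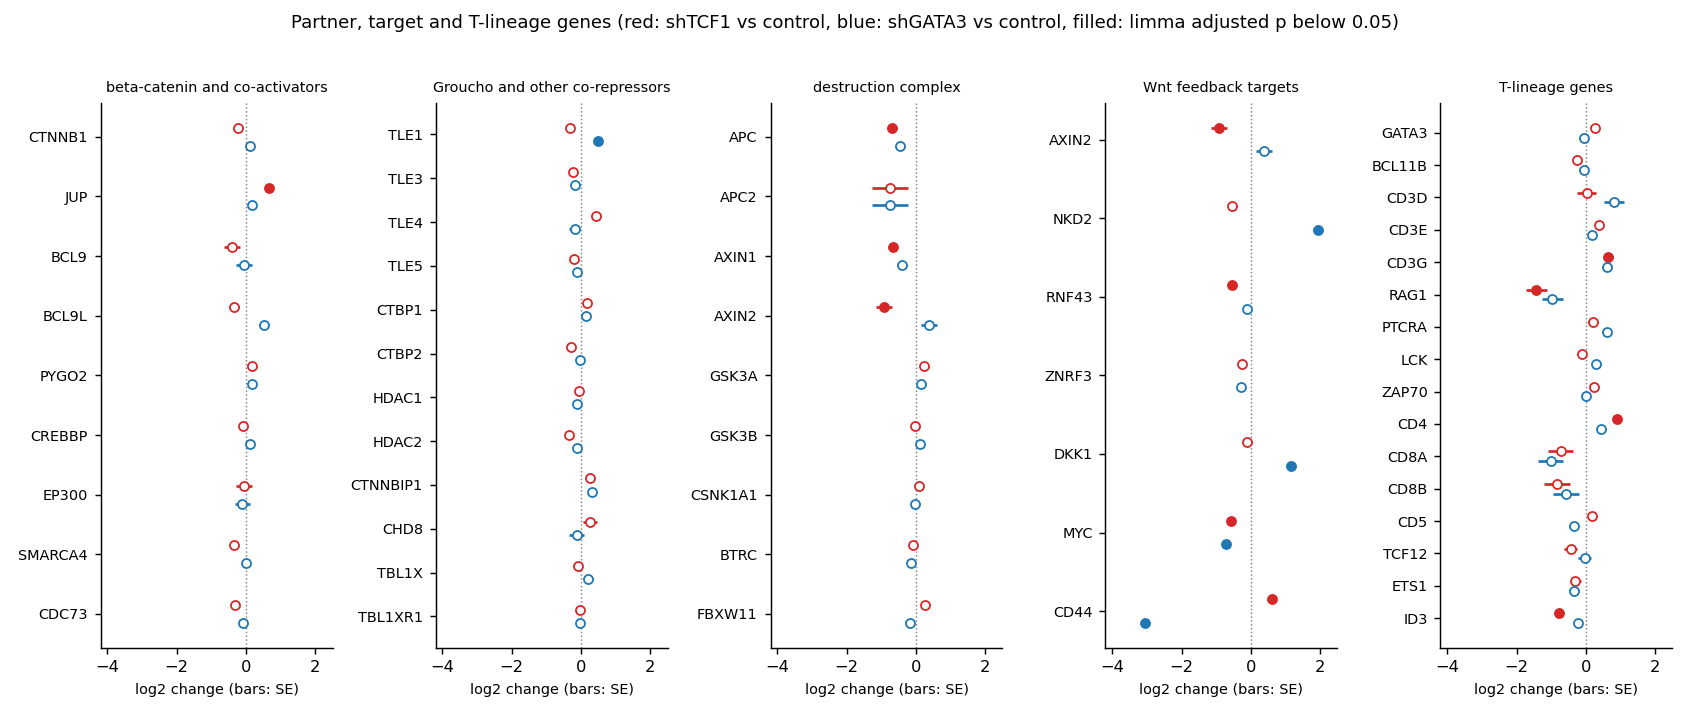
Log2 change (points, with the SE as bars) of each tested gene of the 5 lists under shTCF1 (red) and shGATA3 (blue) against the same control arrays, with filled points for a limma adjusted p below 0.05. CD44 at -3.05 under shGATA3 lies farthest from 0, and the value of RAG1 includes arrays on which it was not well above background.

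Genes with the pattern of TCF7 over the 6 arrays were sought among 1206 genes detected clearly on every array that spanned at least 1 log2 unit. With 3 groups of 2 arrays such likeness mainly follows the 3 group means, and it is given as a description. The highest correlations with the mean of both TCF7 probes were those of FGFR1, a growth factor receptor (r = 0.999, shTCF1 vs control log2 change -1.17), SH3TC1 (0.996, -0.76), CYFIP1 (0.995, -0.99), the T-cell receptor adaptor LAT (0.995, -1.54) and the chloride channel gene CFTR (0.995, -2.75). The lowest were those of RTN4R (-0.999, 0.97), UMODL1 (-0.993, 1.11), NIPAL3 (-0.992, 0.72), PCYT1B (-0.992, 0.88) and LGALS9C (-0.992, 0.81), the last of which has near-identical relatives that its probe may also read. The 2 TCF7 probes correlated with each other at 0.993 over the same 6 arrays.

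For LEF1 the highest correlations were those of the lipid transporter ABCA1 (r = 0.978), VCL (0.976) and HBEGF (0.976), and the lowest those of MEAK7 (-0.993), WT1-AS (-0.969) and HSPG2 (-0.964). These genes shared the order of LEF1, with the shGATA3 group at one end and the shTCF1 group at the other.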

How the data were processed

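Expression was measured in RPMI-8402 cells on 6 custom 1-colour Agilent arrays, 2 for each of 3 groups taken from the sample titles. Deposited scanner files hold spot intensity, background-subtracted and detrended by Agilent Feature Extraction 10.7.1.1 per the file headers (9.1 per the labels), with no scaling between arrays. A matrix of log2 values that the authors deposited, VSN-normalized per their methods, was kept as an alternative, since several columns departed from the scanner values of their sample. Of its 6 columns, the one named for control replicate 2 correlated at 0.822 with its array and at most at 0.827 with any other. The column named for control replicate 1 correlated best with the array of control replicate 2 (0.992, against 0.980 with its own). Each shGATA3 column correlated best with the array of the other shGATA3 replicate, for replicate 1 at 0.991 against 0.981 with its own. Per-sample columns left unused numbered 0.

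Control spots and spots marked as outliers were left out, which removed 71 probes, and spots of 1 probe were averaged. The VSN model was applied to the intensities in R 4.3.3 (arsinh, written for this work and fitted with a trimming quantile of 0.9, 7 iterations and 5 strata), whose fitted offsets were 3.07 to 6.88 intensity units, so changes of dim probes are understated. Tested probes were those that the scanner software marked well above background in both replicates of some group (31131 probes, 27328 of them on all 6 arrays). Symbols came from RefSeq accessions (GRCh38.p14). Limma 3.58.1 (lmFit and eBayes, two-sided) was fitted over all probes and the 6 arrays with a term for group alone, with 3 residual and 2.97 prior degrees of freedom, and with Benjamini-Hochberg adjustment over all tested probes and calls below 0.05. An exact permutation test of 2 against 2 arrays cannot give a two-sided p below 0.333. The scripts were tested on simulated data.

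The members and gene lists were chosen with earlier results of these data known. One listed gene is not reported here and was left out of the list counts. Named were every family probe, list genes called under shTCF1 against control with the 2 largest changes of each list in that comparison, GATA3, and the genes most like TCF7 (5 at each end) and LEF1 (3 at each end). TLE1, TBL1X, BCL9L, CD8B, CTNNB1, GSK3B, NKD2 and the untested stem-cell targets were added after their values were seen. The alternatives were 4 other scalings or background corrections, the deposited matrix, an intensity trend, 2 other filters, a replicate block, the 2 groups of a comparison alone, and each array left out in turn, where a lone array is assumed to vary like the other groups.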

Additional observations from a re-analysis of the deposited data

How the results depend on the processing

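The loss of TCF7 under shTCF1, against control and against shGATA3, was called for both probes under 15 of 16 alternatives. The exception was the deposited value table, where TCF7 A_23_P7582 was at -0.20 and -1.65, A_33_P3250671 at 1.24 and -2.10, and LEF1 at 0.24 against control. In that table the column named for control replicate 2 holds 11.54 for A_23_P7582 and 5.44 for A_33_P3250671. The column named for control replicate 1 holds 13.92 and 11.04. Under shGATA3, TCF7 A_23_P7582 was called with an intensity trend (0.33), and A_33_P3250671 with an intensity trend and in the set of probes detected on every array (0.53) and with normexp correction (0.51). LEF1 between shTCF1 and shGATA3 was called with normexp correction (-0.35). TCF7L2 A_23_P127013, tested only through the shGATA3 group, was called under shGATA3 with quantile normalization (0.82). The dim TCF7L2 probe A_23_P389588 turned direction between shTCF1 and shGATA3 with normexp correction (0.0034) and over the fits without 1 array (-0.48 to 0.36).

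The number of list genes called under shTCF1, under shGATA3 and between them, 11, 5 and 8 of 52, was 18, 10 and 16 with normexp correction, 5, 2 and 4 of 65 with no filter on dim probes, and 0, 0 and 0 with the deposited value table (5, 3 and 4 at an unadjusted p below 0.05). Over all probes the calls moved with them, to 7728, 4280 and 3281 of 31131 with normexp correction and to 2272, 560 and 901 of 57105 with no filter. With an intensity trend the list count was 17, 9 and 15, and over probes detected on every array it was 8 under shGATA3. Without 1 array it lay between 1 and 9, 2 and 5, and 2 and 6. With the replicate block, the numbers did not pair the arrays (correlations of deviations -0.04, -0.01 and 0.05); TCF7 A_23_P7582 under shTCF1 stayed at -1.31, 8 of the 11 list genes were still called under shTCF1, and the TCF7L2 probe A_33_P3377294 was no longer called against shGATA3 (0.51, limma adjusted p = 0.0775, over all alternatives 0.0113 to 1). All probes called under shTCF1 numbered 3853 with the block and 1392 to 4441 without 1 array, against 5274. A slide or scan block was not run, since all arrays share 1 slide and 1 scan. No scaling moved the median of all tested probes by over 0.1. With 2 arrays per group, precision is limited by their number, and probes near background carry the widest intervals.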
